A study of Mus musculus with 15 samples.

Results

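The Il33 and Opalin type is a set of mature oligodendrocyte nuclei from the dorsal hippocampal formation (dHF) of female mice. It held 15297 of the 134019 barcodes of the study (11.4%) and 53.7% of its 28466 mature oligodendrocyte nuclei. A barcode counted as a mature oligodendrocyte when it had at least 500 genes and at least 5 unique molecular identifiers (UMIs, counted RNA molecules) of St18, Mog and Mag together, no UMI of Gad1 or Gad2, and at most 1 UMI of Slc17a7. A mature oligodendrocyte was a member when it had at least 2 UMIs of Il33, Opalin and C030029H02Rik together and more of these than of Anln, Hapln2 and A330049N07Rik together. Where the second sum reached 2 UMIs and led, the nucleus belonged to the Anln and Hapln2 type, with 8128 nuclei. The last 5041 mature oligodendrocytes were of neither type. The members were thus chosen by their measured UMI counts of these genes, and the 6 type genes had themselves been read from a grouping of the same nuclei. The levels that separate the types are therefore given as a description, with no test, and tests are kept for differences between the groups of mice, whose labels the rule did not use.

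Oligodendrocytes wrap axons in myelin, a stack of lipid-rich membrane held together by a few abundant proteins, and supply those axons with metabolites. Mature oligodendrocytes are not uniform, and brain surveys divide them into states by genes outside the core myelin set. Il33 encodes interleukin-33, an alarmin of the interleukin-1 family that is stored in the nucleus and released from damaged cells, and Opalin encodes a transmembrane protein of central myelin. C030029H02Rik is a long intergenic non-coding RNA. In the GRCm38 build, Il33 (ENSMUSG00000024810) lies on chromosome 19 from 29925114 to 29960718 and Opalin (ENSMUSG00000050121) on chromosome 19 from 41061710 to 41077113, while C030029H02Rik (ENSMUSG00000110027) lies on chromosome 7 from 136268324 to 136318513.

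All 15 mice were wild-type C57BL6/J females without a transgene or drug. The 6 NP mice were virgin, nulliparous and of matched age. The 4 control RE mice (ControlPP in the labels) had reproductive experience, which covers breeding, pregnancy, birth, lactation and contact with pups, and the 5 stress RE mice (StressPP) additionally had limited nesting and daily separation from their pups. Tissue was collected after the pups had been weaned, as bilateral punches pooled within each mouse, so a punch can hold neighbouring tissue and a group difference covers the whole experience rather than a single part of it. The labels give 3 batches. Control RE mice occur in batches 2 and 3 only. Each of these batches has 2 mice per group, and batch 1 has 2 NP mice and stress RE mouse 70.

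Members were found in every mouse, from 559 nuclei in stress RE mouse 70 to 1647 in stress RE mouse 75. Their summed counts were 2440083 to 4933971 UMIs per mouse. A median member had 2702 UMIs and 1477 genes, compared to 2942 UMIs in the Anln and Hapln2 type and 7465 UMIs in all other barcodes. The middle 90% of members lay between 1485 and 7584 UMIs. The median was 3094 ± 544 UMIs in NP (SD, n = 6 mice), 2399 ± 341 in control RE (n = 4) and 2817 ± 712 in stress RE mice (n = 5). Among the members, 35 barcodes occurred in 2 libraries, and across the study this held for 2211 of 131768 distinct barcodes. The members' profile of every library correlated with the mean of the other libraries at r = 0.957 to 0.989 across genes, lowest in NP mouse 31.

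The label was checked against the markers. With every nucleus thinned to 2000 UMIs, St18 was found in 98.4% of members, Mog in 68.7% and Mag in 76.8%, as parts of the rule. In excitatory neurons, taken as 8062 nuclei with at least 5 UMIs of Slc17a7, the thinned shares were 14.8%, 1.28% and 1.70%. Myelin genes outside the rule were checked in CPM, counts per 1000000 UMIs of the nuclei. Mbp was at 3245 CPM in members and 128 CPM in the rest of the libraries, and Cnp at 306 and 17.3 CPM, so genes that the rule did not use also mark the members as oligodendrocytes. Here and below, the rest of the libraries does not include the Anln and Hapln2 type. Gad1 and Gad2 were at 0 by the rule. The 10 excitatory neuron markers were not absent: their summed level in members was 3969 CPM (2414 to 5173 over NP mice, 4127 to 5268 over control RE mice and 2533 to 4365 over stress RE mice), compared to 13384 CPM in the rest of the libraries. The astrocyte markers summed to 1016 CPM, the precursor markers to 768 CPM, the microglial markers to 180 CPM, the choroid plexus and ependymal markers to 171 CPM and the vascular markers to 17.9 CPM. The GABAergic list summed to 2472 CPM, of which Erbb4, a neuregulin receptor that oligodendrocytes also carry, gave 2353 CPM.

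Il33 was counted in 74.2% of members, compared to 32.5% of the Anln and Hapln2 type and 5.76% of the excitatory neurons, whose median depth was 19042 UMIs. At 2000 UMIs per nucleus these shares were 61.5%, 24.1% and 0.732%, with shallower members left out (603 of NP mice, 1218 of control RE mice and 1482 of stress RE mice). Opalin gave 57.3%, 20.8% and 0.546% after thinning, and C030029H02Rik 75.6%, 31.6% and 0.757%. Anln had the opposite order, with 27.9% of members, 73.7% of the other type and 1.32% of excitatory neurons. Neither sum was thus exclusive, and the 2 types shared all 6 genes at different levels.

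The 3 type genes did not have to occur together. All 3 were counted in 6624 members (43.3%), Il33 and C030029H02Rik in 3045, Opalin and C030029H02Rik in 2588, and Il33 and Opalin in 1272. A further 1036 members had C030029H02Rik alone, 404 had Il33 alone and 328 had Opalin alone. The median member had 5 UMIs of the type genes and 1 UMI of the Anln sum, and 4623 members (30.2%) had no UMI of the Anln sum. At the threshold, 1821 members had exactly 2 UMIs of the type genes, and 2207 (14.4%) led by a single UMI. Just outside it, 1600 nuclei were tied at 2 or more UMIs and 806 had 1 UMI of the type genes against none. On the oligodendrocyte gate, 623 members had exactly 5 UMIs of St18, Mog and Mag, and 500 barcodes with 4 such UMIs would have been members otherwise.

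The share of the Il33 and Opalin type among mature oligodendrocytes did not differ between the 3 groups beyond the spread of the mice. In NP mice the lowest share was 47.8%, the median 55.0% and the highest 61.9%, with a mean of 55.1% ± 4.83 (SD, n = 6). Control RE mice 66, 72, 87 and 88 had 54.6%, 49.2%, 53.6% and 52.0% (52.3% ± 2.34, n = 4). Stress RE mice 43, 70, 75, 77 and 90 had 57.3%, 62.0%, 49.1%, 58.3% and 52.2% (55.8% ± 5.11, n = 5). The groups overlapped, and stress RE mice had both the highest share and the next to lowest. The difference of control RE from NP was −2.70 percentage points by means (exact permutation over mice, two-sided, p = 0.333), stress RE minus control RE 3.41 points (exact permutation, p = 0.262) and stress RE minus NP 0.708 points (exact permutation, p = 0.814). After Benjamini-Hochberg adjustment over 6 share tests the exact permutation p was 0.789 for the first pair of differences and 0.814 for the last. The smallest p these tests could give was 0.00476, 0.00794 and 0.00216. The sign of control RE minus NP depended on the definition: it was 0.330 points over the 2 types only and 0.633 points by UMIs of the 3 type genes over all 6. Without nuclei that had at least 5 UMIs of a marker list of another cell class it was 3.14 points, but this limit removed 13577 of 15297 members, and the GABAergic list in it holds Erbb4, so it does not select nuclei of other classes. Within batch 2 the differences were −0.0978, 4.60 and 4.50 points and within batch 3 −1.22, −0.886 and −2.10 points, in the same order.

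Of all nuclei with at least 500 genes, members made up 11.3% ± 1.24 in NP (SD, n = 6), 10.9% ± 1.39 in control RE (n = 4) and 12.1% ± 3.08 in stress RE mice (n = 5). Stress RE mice ranged from 9.09% in mouse 90 to 16.8% in mouse 77 and covered the whole range of the other groups. The differences were −0.394 points for control RE minus NP (exact permutation, p = 0.657), 1.20 points for stress RE minus control RE (exact permutation, p = 0.540) and 0.805 points for stress RE minus NP (exact permutation, p = 0.617). Within batch 2 they were −0.873, 3.13 and 2.25 points, and within batch 3 0.225, 0.449 and 0.674 points. Control RE minus NP was 0.937 points under the same limit on marker UMIs, and stress RE minus NP −0.355 points with nuclei thinned to 2000 UMIs. Without stress RE mouse 77, stress RE minus NP turned negative and almost no difference between stress RE and control RE remained. Without control RE mouse 88, control RE minus NP turned positive. This share also moves with the other tissue in a punch, and mature oligodendrocytes made up 20.6%, 20.8% and 21.8% of nuclei in the 3 groups.

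**Figure D1:**
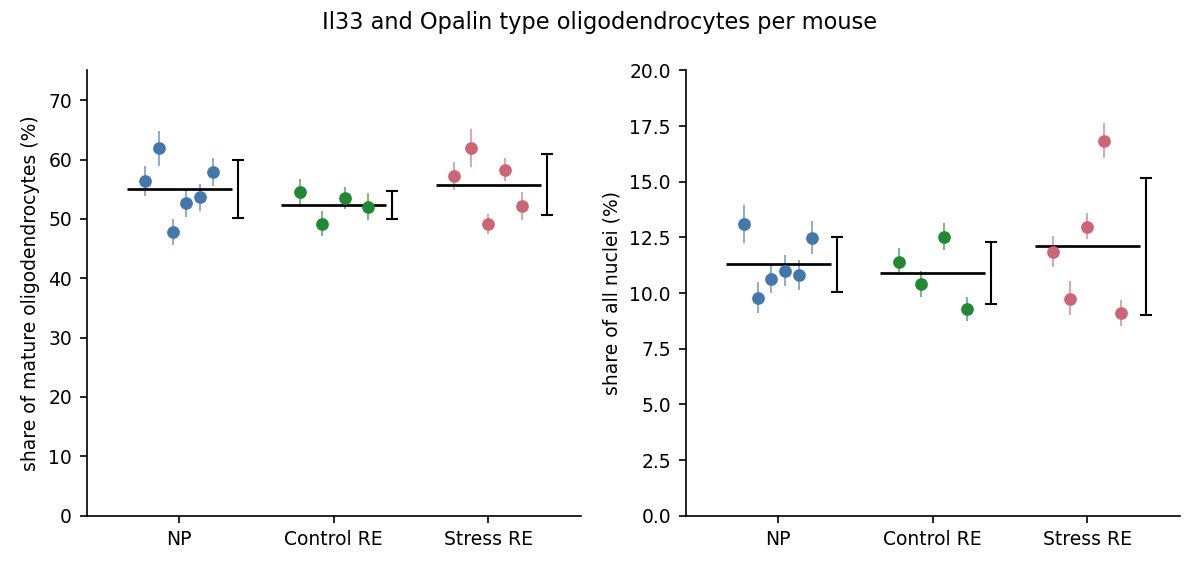
Share of the Il33 and Opalin type among mature oligodendrocyte nuclei (left) and among all nuclei (right), in percent, for each of the 15 mice by group. Points are mice with 95% Wilson intervals, which cover counting error only, and lines and bars beside them are the group mean and SD; the groups overlap in both panels, with means of 55.1%, 52.3% and 55.8% on the left.

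The type genes themselves differed little between groups. Il33 had 470 CPM in the lowest, 518 CPM in the median and 565 CPM in the highest NP mouse. Control RE mice 66, 72, 87 and 88 had 502, 542, 495 and 532 CPM, and stress RE mice 43, 70, 75, 77 and 90 had 504, 520, 573, 606 and 496 CPM. The groups overlapped throughout, and the log2 fold change was 0.02 for control RE minus NP (standard error 0.0767) and 0.03 for stress RE minus control RE (standard error 0.0797). C030029H02Rik had 754 ± 98.5 CPM over NP mice, 740 ± 65.4 over control RE mice and 756 ± 57.2 CPM in stress RE mice, again with overlapping groups. Opalin was at 308, 433 and 458 CPM in the lowest, median and highest NP mouse, at 405, 372, 404 and 332 CPM in control RE and at 465, 464, 467, 513 and 409 CPM in stress RE mice. Every stress RE mouse thus had more Opalin than every control RE mouse, by a log2 fold change of 0.27 (standard error 0.100), which did not pass adjustment. Levels within members are limited from below by the rule, so the genes were also tested over all mature oligodendrocytes. There Opalin differed by 0.35 on the log2 scale (standard error 0.144, adjusted p = 0.883 by edgeR's quasi-likelihood test with Benjamini-Hochberg adjustment) and Il33 by 0.13 (standard error 0.112, adjusted p = 0.885 by the same test) for stress RE minus control RE, and none of the 6 type genes passed the test in any comparison.

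Apart from the genes of the rule, the members stood apart from the Anln and Hapln2 type by a limited set of genes. Of 3701 genes with at least 50 CPM in either type, 277 (7.48%) were higher and 425 (11.5%) lower in members in every one of the 15 mice. Because the types were read from these nuclei, these counts describe the split and are no test of it. Ratios are the mean over mice of the log2 ratio of CPM + 1.

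Among the genes higher in members, several encode receptors and adhesion proteins. Kit, the receptor of stem cell factor, was at 69.2 ± 19.0 CPM in members and 10.1 ± 4.53 CPM in the other type (SD, n = 15 mice), a log2 ratio of 2.69 that ranged over mice from 1.75 to 3.73. Kirrel3, an adhesion protein of the immunoglobulin superfamily, was at 2345 ± 299 and 635 ± 137 CPM (log2 ratio 1.90, from 1.51 to 2.56). It lies on chromosome 9 from 34485894 to 35036716. The long intergenic non-coding RNA 7630403G23Rik lies on the same chromosome from 34042369 to 34059019, and it had 143 CPM in members, 27.5 CPM in the other type and 2.78 CPM in the rest of the libraries. Gabrr2, a subunit of GABA receptors, was at 59.7 and 16.7 CPM, and Gfra1, a co-receptor for glial cell line-derived neurotrophic factor, at 111 and 34.3 CPM. Slc13a1, a sulfate transporter, was at 165 and 52.5 CPM. The remaining genes with the largest ratios were Rasal1 (70.9 and 21.7 CPM), Synpr (354 and 113 CPM), Nckap5 (191 and 69.9 CPM), Man1a (154 and 59.0 CPM) and Rhoj (71.1 and 28.5 CPM). All genes of this paragraph were higher in members than in the other type in 15 of 15 mice, as their choice required. Mature oligodendrocytes of neither type had more Synpr (531 CPM) and Nckap5 (287 CPM) than members, and 2053 CPM of Kirrel3. The rest of the libraries had 425, 104 and 1581 CPM of Synpr, Nckap5 and Kirrel3. The other genes of this paragraph were lower in nuclei of neither type than in members.

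Ptgds, which encodes the prostaglandin D synthase of the brain and is also abundant in the leptomeninges and choroid plexus, was higher in members as well, at 676 ± 310 CPM compared to 211 ± 84.1 CPM (log2 ratio 1.63). Its level in members varied widely between mice, from 282 CPM in stress RE mouse 90 to 1304 CPM in NP mouse 27. The log2 ratio between the types stayed positive in each mouse, with 0.61 as the lowest value. In NP mice Ptgds had 413, 712 and 1304 CPM as lowest, median and highest value. Control RE mice 66, 72, 87 and 88 had 773, 384, 347 and 385 CPM and stress RE mice 43, 70, 75, 77 and 90 had 749, 997, 816, 589 and 282 CPM. The groups overlapped, and control RE minus NP was −0.74 on the log2 scale (standard error 0.342), without passing adjustment. The choroid plexus and ependymal markers had a mean sum of 185 CPM in NP, 120 CPM in control RE mice, compared to 196 CPM in stress RE mice. Stress RE mouse 75 had 504 CPM of them, and the stress RE mean was 119 CPM without it. The part of these markers in the Ptgds values was not tested.

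Genes lower in members included single markers of earlier and of other oligodendrocyte states. Of 6 genes of newly formed oligodendrocytes at 50 CPM or more, 0 were higher and 2 lower in every mouse (median log2 ratio −0.11). Of 13 genes of mature oligodendrocyte states, 5 were higher and 5 lower in every mouse (median 0.09). Of all genes, 7.48% were higher and 11.5% lower. Enpp6, a choline phosphodiesterase best known from newly formed oligodendrocytes, was at 47.8 ± 14.5 CPM in members and 278 ± 46.1 CPM in the Anln and Hapln2 type (log2 ratio −2.56). Klk6, a secreted protease known from oligodendrocytes of the spinal cord and white matter, was at 0.876 CPM compared to 22.4 CPM (log2 ratio −3.58) and was nearly absent from members. The non-coding RNA A530053G22Rik had 11.3 compared to 179 CPM (−4.09), and A330072L02Rik 11.4 compared to 93.0 CPM (−2.95). Piezo2, a mechanically gated channel, was at 8.39 and 68.8 CPM, the tetraspanin Tspan9 at 49.3 and 191 CPM, and Agmo, which cleaves ether lipids, at 63.3 and 240 CPM. Selenop, a selenium carrier, had 38.9 and 116 CPM, Carns1, which makes carnosine, 41.3 and 124 CPM, and the calcium-binding protein S100b 20.7 and 61.3 CPM. Crybg3 (44.8 and 137 CPM), Rab37 (16.4 and 57.7 CPM) and 4930587E11Rik (16.9 and 60.6 CPM) completed the set. All genes named in this paragraph were lower in members in 15 of 15 mice, as the choice of all but Klk6 required.

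**Figure D2:**
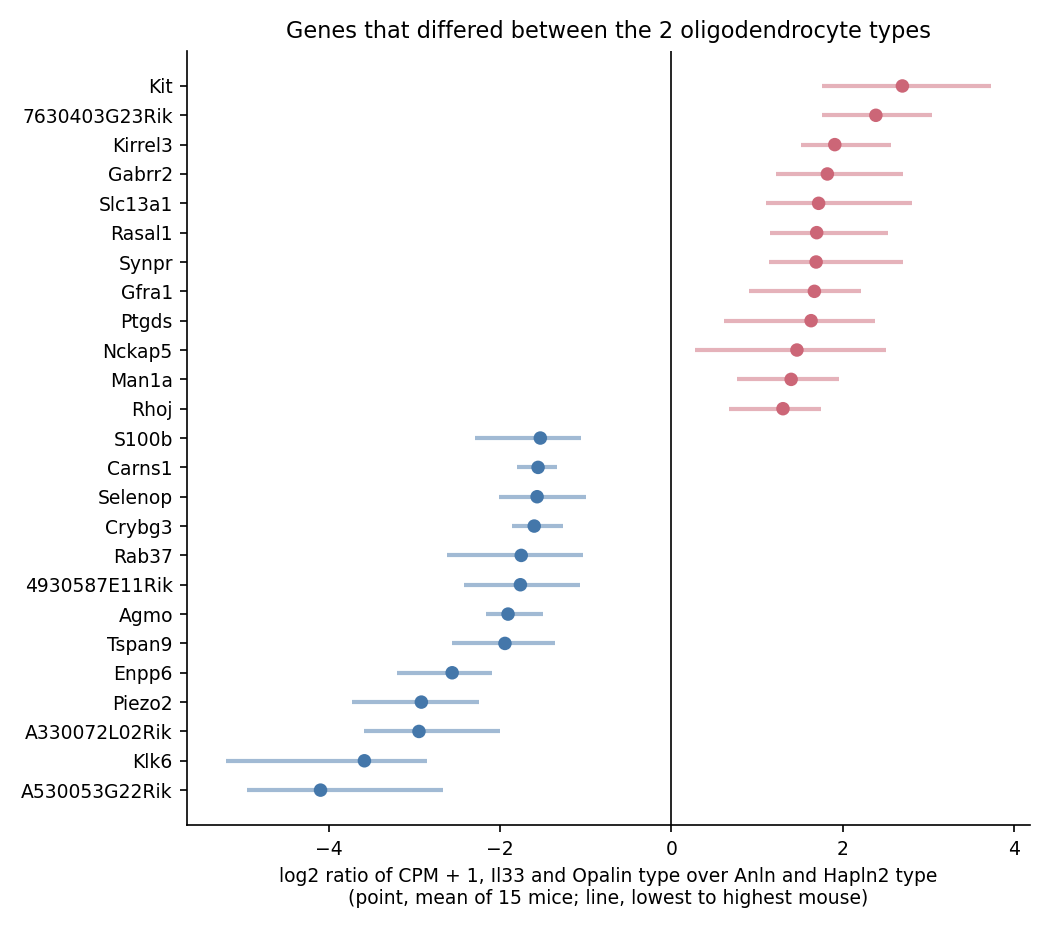
Log2 ratio of CPM + 1 in the Il33 and Opalin type over the Anln and Hapln2 type for 25 genes, with the mean of 15 mice as a point and the lowest to highest mouse as a line. Kit has a mean of 2.69 and A530053G22Rik of −4.09. No line crosses 0, and apart from Klk6 the genes were chosen for having the same sign in every mouse. The split was made on these nuclei, so the plot is a description.

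Core myelin genes had a median ratio near 0, although many had the same sign in every mouse. Of 17 genes of myelin proteins at 50 CPM or more, 7 were higher in members in every mouse (7.48% of all genes) and 2 lower (11.5% of all genes), with a median log2 ratio of 0.04. Among the former were Mal (651 and 451 CPM), Tspan2 (606 and 395 CPM), the neurofascin gene Nfasc (932 and 629 CPM) and Cnp (306 and 268 CPM). Of 9 genes of myelin lipid synthesis, 0 were higher and 3 lower in every mouse (median −0.17). Of 16 genes for growth factor and axon signals, Erbb4 (2353 and 1357 CPM) and Sema6a (507 and 388 CPM) were higher and Sema5a (139 and 185 CPM) lower in every mouse. The iron carrier Trf (843 and 1240 CPM) and Apod (332 and 613 CPM) were lower in every mouse, as was the organic anion transporter Slco3a1 (212 and 481 CPM). Cd9 (113 and 58.5 CPM) was higher in every mouse. The receptor of interleukin-33 itself, Il1rl1, was at 0.136 CPM in members and was not counted in 10 of 15 mice, whereas its partner Il1rap was at 615 CPM.

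Levels were also read by the size of the lead. Mature oligodendrocytes were binned by how far a sum led, from a lead of 5 or more UMIs for the Anln sum (2829 nuclei) through leads of 2 to 4 (3649) and 1 (1650) to leads of 1 (2207), 2 to 4 (7746) and 5 or more (5344) for the type sum of the members. Ptgds had 100, 263, 358, 547, 665 and 721 CPM over these bins. Kit had 6.18, 10.8, 17.0, 34.7, 62.0 and 91.0 CPM, and Kirrel3 384, 691, 1082, 1631, 2191 and 2746 CPM. Each of these mean levels was higher in every further bin. The bins use the sums that define the types and the genes were chosen for differing between them, so the order is a description. A gradient between the types and nuclei assigned to the wrong type at small leads cannot be told apart here. Enpp6 went the other way, from 375, 241 and 138 CPM to 76.9, 53.0 and 33.7 CPM, and A530053G22Rik from 326 CPM to 6.27 CPM at the ends. Mbp, the myelin basic protein, had no such order, with 3623, 3320, 3168, 3217, 3148 and 3388 CPM. A lead of a given size is easier to reach in a deeper nucleus, and the median depth over the bins was 3581, 2669, 2569, 2435, 2491.5 and 3171.5 UMIs.

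**Figure D3:**
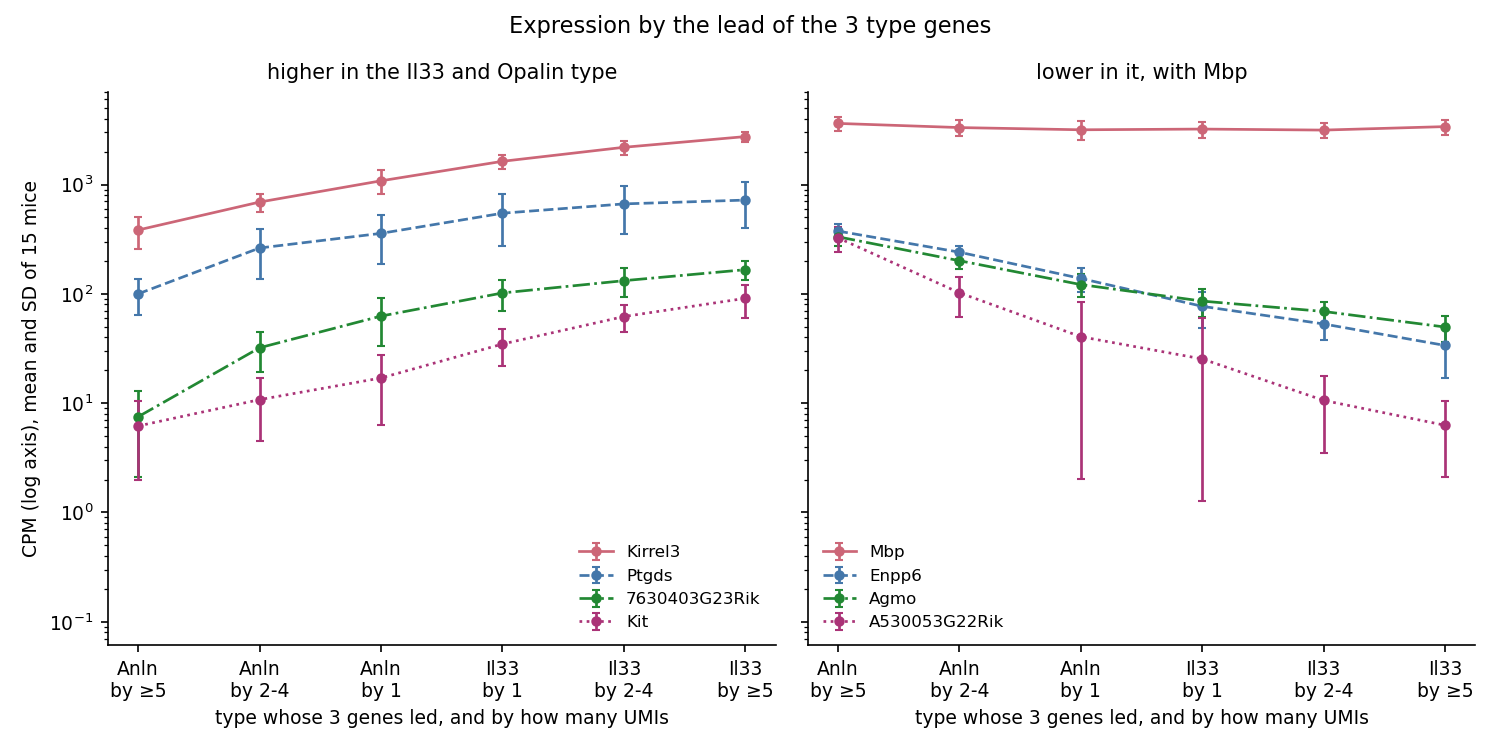
Mean CPM (log axis) of genes higher (left) and lower (right, with Mbp) in the Il33 and Opalin type, across 6 bins of mature oligodendrocytes ordered by the lead of the 2 sums of type genes. Points are means of 15 mice and bars the SD, with the lower bar drawn to 5% of the mean where the SD exceeds the mean; Kirrel3 goes from 384 to 2746 CPM and A530053G22Rik from 326 to 6.27 CPM.

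The pooled counts of the 328 members with Opalin as their only type gene differed from those of other members. This subset was singled out after its values were seen. These 328 nuclei came from all 15 mice, with at most 52 from a single mouse, and had a median of 3015.5 UMIs. Pooled over mice, the long non-coding RNA 9630013A20Rik, known from oligodendrocytes at the onset of myelination, was at 1278 CPM in them, compared to 27.2 CPM in members with all 3 type genes, 19.2 CPM in members with Il33 alone and 13.8 CPM in those with C030029H02Rik alone. Kirrel3 (4478 and 2263 CPM), Nckap5 (1785 and 132 CPM), Synpr (1142 and 319 CPM), Mbp (5911 and 3256 CPM) and the transcription factor gene Tcf7l2 (309 and 146 CPM) were also higher than in members with all 3 type genes. Car2 (349 and 715 CPM) and Apod (159 and 354 CPM), both of mature cells, were lower. The UMIs of 9630013A20Rik came mostly from few nuclei, since 92 members (0.601%) with at least 3 UMIs of 9630013A20Rik held 78.5% of its UMIs among members, and 41 of these 92 had Opalin alone. Whether the differences of the other genes also came from few of the 328 nuclei was not tested.

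Over all members, 9630013A20Rik had 14.1, 36.8 and 60.2 CPM in the lowest, median and highest NP mouse. Control RE mice 66, 72, 87 and 88 had 31.2, 96.7, 25.7 and 80.1 CPM, and stress RE mice 43, 70, 75, 77 and 90 had 36.3, 97.5, 120, 114 and 152 CPM. Among stress RE mice 4 of 5 lay above every NP mouse, with mouse 43 inside the NP range, and control RE overlapped with both groups. Stress RE minus NP was 1.49 on the log2 scale with an unadjusted p of 0.00155 by edgeR's quasi-likelihood test, and it did not pass adjustment. Members with at least 3 UMIs of this RNA numbered 21 of 5197 in NP, 24 of 4667 in control RE and 47 of 5433 in stress RE mice. Stress RE mouse 75 held 21 of the 47, and 26 remained without it, while control RE mouse 72 held 11 of the 24, and 13 remained without it. The share of members with Opalin alone was 1.96% ± 0.627, 1.99% ± 0.622 and 2.16% ± 1.27 in the same order. Of 11 tested genes on the list of newly formed oligodendrocytes, 1 was higher and 0 lower in stress RE than in NP. This was at an unadjusted p under 0.05, where 1.58% of all genes were higher and 1.58% lower. A negative difference was found for 6 of the 11, with a median of −0.06. For stress RE minus control RE, 0 were higher and 1 lower (2.78% and 5.38% of all genes).

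For the comparison of stress RE with control RE, which asks what postpartum stress leaves behind in dams that share reproductive experience, UMI counts of the members were summed per mouse. Of 13077 genes tested, 0 had a Benjamini-Hochberg adjusted p under 0.05 by edgeR's quasi-likelihood test (0.0% called), the lowest adjusted p being 0.438. Unadjusted, 1066 genes were under 0.05, of which 363 (2.78% of genes tested) were higher and 703 (5.38%) lower in stress RE. This number was 570 without control RE mouse 88 and 1619 without stress RE mouse 90. DESeq2, the tool of the study, called 13 of the 24850 genes it was given, 3 higher and 10 lower. On simulated counts at these depths, edgeR recovered 61.9% of genes given a log2 change of 1 and 95.9% of genes given a log2 change of 2. These shares leave out changed genes below its filter on low counts. DESeq2 recovered 67.0% and 93.0% of all changed genes. It called 0.179% of the 12877 unchanged genes, compared to 0.0550% of 12718 for edgeR. DESeq2 thus called unchanged genes more often than edgeR, and some of its 13 calls may be of unchanged genes. The simulation changed 200 genes and let genes vary independently, so its rates need not hold for the real counts. The 0 calls of edgeR thus do not show that changes of this size are absent. The genes named here are the 6 of smallest p by edgeR and, chosen after their values were seen, the calls of DESeq2 and list members with an unadjusted p under 0.05.

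Zbtb16 and Fkbp5, genes that glucocorticoids switch on in many tissues, had their lowest levels in stress RE mice. Zbtb16, a zinc finger repressor on chromosome 9 from 48654297 to 48836222, had 137, 275 and 338 CPM in the lowest, median and highest NP mouse. In control RE mice 66, 72, 87 and 88 it had 331, 280, 505 and 527 CPM (411 ± 123, SD, n = 4) and stress RE mice 43, 70, 75, 77 and 90 had 132, 248, 163, 112 and 207 CPM (172 ± 55.4, n = 5). Every stress RE mouse was below every control RE mouse, whereas NP mice overlapped with both groups. The log2 fold change was −1.28 (standard error 0.278, adjusted p = 0.438 by edgeR and 0.036 by DESeq2), and the log2 ratio of group means was −1.34 within batch 2 and −1.50 within batch 3.

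Fkbp5, a co-chaperone of the glucocorticoid receptor on chromosome 17 from 28399094 to 28517527, had 32.7, 47.5 and 69.4 CPM in the lowest, median and highest NP mouse. It had 54.5, 56.7, 77.2 and 92.6 CPM in control RE mice 66, 72, 87 and 88 and 24.0, 33.2, 42.95, 28.2 and 50.1 CPM in stress RE mice 43, 70, 75, 77 and 90. Again no stress RE mouse reached a control RE mouse. The log2 fold change was −1.01 (standard error 0.234, adjusted p = 0.438 by edgeR and 0.0492 by DESeq2), with −0.93 and −0.98 within batches 2 and 3. The same difference was −1.21 for Zbtb16 and −1.004 for Fkbp5 in the Anln and Hapln2 type. In the test of the difference between the types, members differed from that type by −0.093 for Zbtb16 (standard error 0.0808) and −0.005 for Fkbp5 (standard error 0.155). Neither gene was called. This test recovered 30.6% of genes with a simulated log2 change of 1. The simulation drew the 2 types of a mouse independently of each other, so this rate need not hold for the real counts.

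On the list of glucocorticoid responsive genes, 21 of 24 passed the filter on low counts. Unadjusted, 0 were higher and 5 lower in stress RE, namely Zbtb16, Fkbp5, Per1, Sgk1 and Cebpd, compared to 5.38% of all genes lower, and 4 of these had no overlap between the groups, compared to 1.44% of all genes. The median log2 fold change of the list was −0.14, compared to −0.01 over all genes. Per1, a clock gene that glucocorticoids also induce, was at 31.02 CPM in control RE mice, compared to 21.0 CPM in stress RE mice. Tsc22d3, another common target, differed by −0.10, and Nr3c1, the receptor itself, was at 210 ± 28.8 and 246 ± 20.7 CPM, with overlapping groups. Of the 21 genes, 14 had a negative difference.

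Adipor2, an adiponectin receptor, had 373, 511 and 623 CPM in the lowest, median and highest NP mouse, 486, 597, 550 and 524 CPM in control RE mice 66, 72, 87 and 88 and 326, 318, 407, 390 and 315 CPM in stress RE mice 43, 70, 75, 77 and 90. Stress RE mice were all below control RE mice, and 2 of 5 were inside the NP range. The log2 fold change was −0.65 (standard error 0.133, adjusted p = 0.438 by edgeR and 0.036 by DESeq2). Htra1, a secreted serine protease, had 64.4, 80.5 and 109 CPM as lowest, median and highest NP value, 69.0, 89.3, 116 and 102 CPM in control RE and 66.6, 41.0, 59.6, 60.8 and 42.7 CPM in stress RE mice, in the order above. Its log2 fold change was −0.82 (standard error 0.181). Rcan2, an inhibitor of calcineurin, was at 399 ± 45.4 CPM in control RE mice, compared to 245 ± 42.1 CPM in stress RE mice, and the chromatin regulator gene Arid5b at 181 ± 7.59 and 137 ± 12.4 CPM. None of these 4 genes had overlapping groups, where 1.44% of all genes were lower without overlap, but they were chosen by their p-values. They were not particular to the members: in the Anln and Hapln2 type the differences were −0.65, −0.87, −0.64 and −0.44 in the same order. Dagla, which makes the endocannabinoid 2-arachidonoylglycerol, was at 41.3 ± 6.63 and 25.2 ± 4.47 CPM without overlap (−0.74), and Phyhipl was the call of DESeq2 whose groups overlapped, at 128 ± 11.7 and 174 ± 22.7 CPM (0.41), with stress RE mouse 90 inside the range of control RE.

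The other genes of smallest p were lower in stress RE and low in members. Zfp831 had 18.7 ± 2.87 CPM in control RE mice, compared to 8.29 ± 3.14 CPM in stress RE mice (log2 fold change −1.21, standard error 0.234), Sh3pxd2a 24.1 ± 1.20 and 13.6 ± 1.98 CPM (−0.86), and Mical2, which acts on actin filaments, 103 ± 14.6 and 63.5 ± 10.9 CPM (−0.73). NP mice had 9.58, 14.5 and 63.1 CPM of these 3 genes, close to stress RE. Neuronal markers had the same order as these 3 genes. The excitatory marker sum of the members was 4655 ± 469 CPM in control RE mice, compared to 3498 ± 799 CPM in stress RE mice, with Camk2a, Rbfox3, Grin2b and Syt1 lower at an unadjusted p under 0.05, where 5.38% of all genes were, and also Slc17a7, which the rule limits to 1 UMI per member. Without the 10% of members with most UMIs in each mouse, the differences were −0.45 for Mical2, −0.88 for Zfp831 and −0.65 for Sh3pxd2a. They were −1.32 for Zbtb16, −0.92 for Fkbp5, −0.71 for Adipor2 and −0.91 for Htra1. Without these nuclei 0 of the neuronal markers were lower at an unadjusted p under 0.05. As 1.38% of all genes were, a list this short would seldom hold any, and the count says little. The mean excitatory marker sum was still lower in stress RE (2423 ± 852 CPM) than in control RE mice (2879 ± 797 CPM), within its spread, and Camk2a differed by −0.41.

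Several genes of myelin lipid synthesis had the opposite order, higher in stress RE than in control RE. Ugt8a, which makes the galactolipids of myelin, had 582, 637 and 756 CPM in the lowest, median and highest NP mouse. In control RE mice 66, 72, 87 and 88 it had 617, 615, 539 and 471 CPM, and stress RE mice 43, 70, 75, 77 and 90 had 864, 701, 690, 861 and 760 CPM. No stress RE mouse was as low as a control RE mouse, and NP mice lay between and overlapped with both. The log2 fold change was 0.45 (standard error 0.109, adjusted p = 0.438 by edgeR and 0.0442 by DESeq2). Elovl7, a fatty acid elongase, had 201, 233 and 256 CPM as lowest, median and highest NP value, 190, 186, 188 and 155 CPM in control RE and 226, 284, 224, 271 and 250 CPM in stress RE mice, without overlap between the RE groups. Its log2 fold change was 0.46 (standard error 0.103, adjusted p = 0.438 by edgeR and 0.0404 by DESeq2). Both genes had the same sign in the Anln and Hapln2 type, with 0.31 for Ugt8a and 0.38 for Elovl7.

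All 14 genes of the myelin lipid list were tested, and 6 were higher and 0 lower at an unadjusted p under 0.05, with a median of 0.23. Of all genes, 2.78% were higher and 5.38% lower at this threshold. Besides Ugt8a and Elovl7 these were Enpp2 (1072 CPM in control RE mice, compared to 1362 CPM in stress RE mice), the fatty acid hydroxylase gene Fa2h (443 and 553 CPM), the sulfotransferase gene Gal3st1 (88.9 and 117 CPM) and Aspa (691 and 819 CPM). The groups did not overlap for 4 of the 14, compared to 1.11% of all genes. On the list of 18 myelin proteins 6 were higher and 0 lower (median 0.28), among them Cnp (221 and 346 CPM), but none without overlap. Of 20 cholesterol genes 7 were higher and 0 lower (median 0.24), with Hmgcs1 (38.3 and 54.7 CPM) and Sqle (13.8 and 19.8 CPM) as examples. Of 14 iron and antioxidant genes 6 were higher and 0 lower (median 0.25), including the ferritin genes Fth1 (400 and 690 CPM) and Ftl1 (23.4 and 43.03 CPM). None of these genes passed adjustment over all genes by edgeR.

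In the 90% of members with fewer UMIs, the share of all genes higher in stress RE at an unadjusted p under 0.05 was 1.97%. Without the deepest 10%, 4 of the lipid genes, 1 of the myelin protein genes, 2 of the cholesterol genes and 1 of the iron and antioxidant genes were higher at an unadjusted p under 0.05, with medians of 0.17, 0.17, 0.25 and 0.23. The medians of the lipid and myelin protein lists were thus lower, and those of the cholesterol and iron lists nearly the same. Ugt8a differed by 0.34 and Elovl7 by 0.36 in that setting. The part of the neuronal markers in these lists was not tested further.

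**Figure D4:**
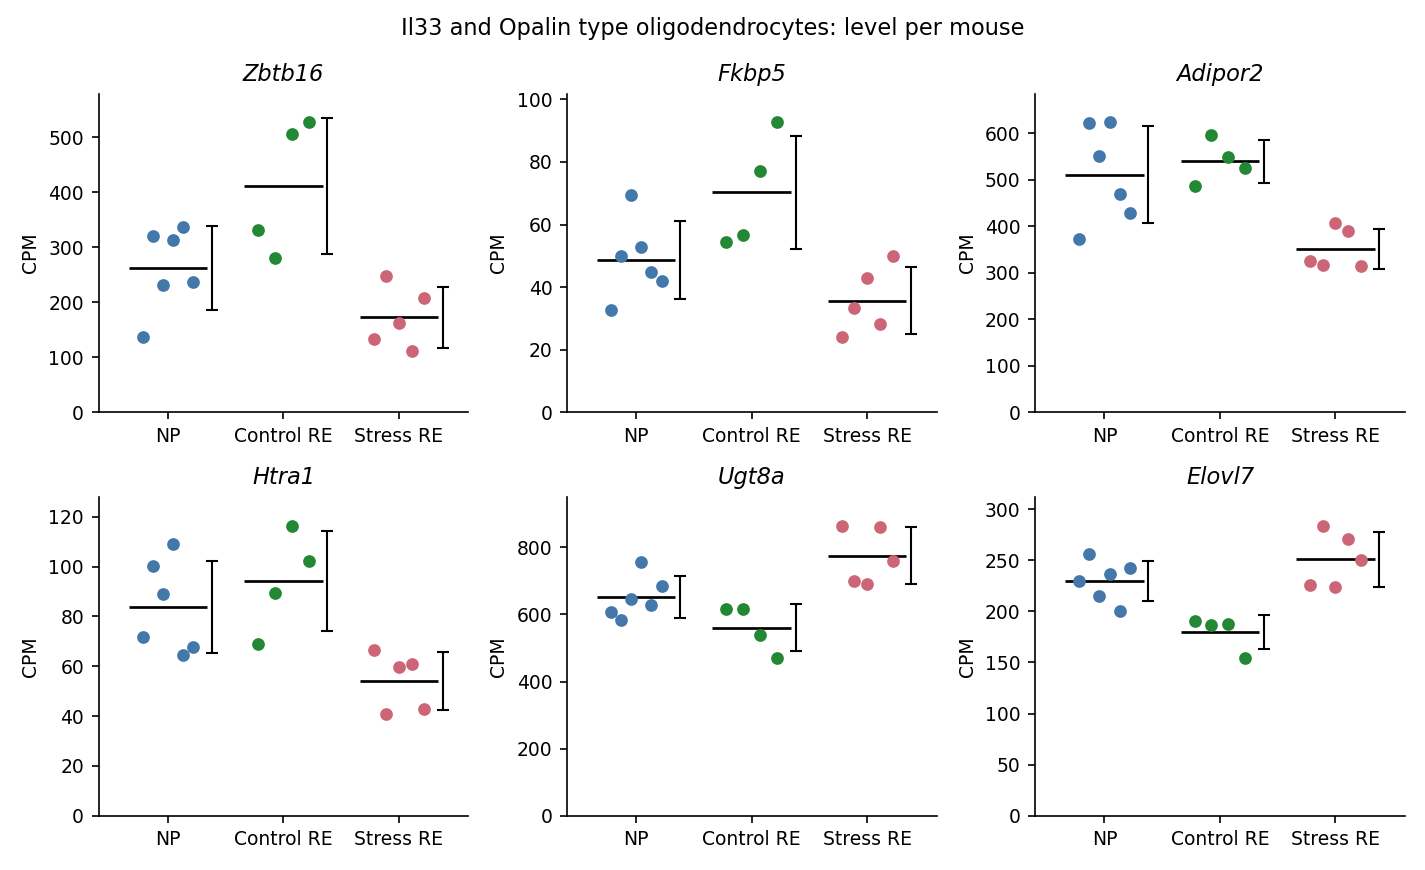
CPM in the Il33 and Opalin type of each of the 15 mice by group, for 4 genes lower (Zbtb16, Fkbp5, Adipor2, Htra1) and 2 genes higher (Ugt8a, Elovl7) in stress RE than in control RE; lines and bars are the group mean and SD. The genes shown were chosen among the calls of DESeq2. Control RE and stress RE points do not overlap in any panel, and edgeR's adjusted p was 0.438 for Zbtb16.

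The other lists had fewer genes under the unadjusted threshold or genes in both directions between stress RE and control RE. Of 21 growth factor and axon genes, 3 were higher and 6 lower at an unadjusted p under 0.05 (2.78% and 5.38% of all genes). The higher genes, Sema6a (412 and 572 CPM), Rtn4 (997 and 1291 CPM) and Lpar1 (167 and 217 CPM), are known from oligodendrocytes. They did not overlap between the groups, where 1.11% of all genes were higher without overlap. The lower ones (Lingo1, Nrg2, Ntrk2, Ntrk3, Bdnf and Nrg3) were each higher in the rest of the libraries than in members. On this list 1 gene was lower without overlap, compared to 1.44% of all genes. Of 8 genes of interleukin-33 signalling 0 were higher and 0 lower. The same held for 13 receptors of steroid hormones, thyroid hormone, dopamine and related ligands, and for 14 genes of dopamine handling and H3 dopaminylation. Tgm2, the enzyme that attaches dopamine to histone H3, was at 0.866 CPM and below the filter on low counts. On the list of mature oligodendrocyte state genes, 4 of 18 were higher (Car2, Trf, Gsn and Qdpr) and 0 lower, with a median of 0.35.

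For control RE compared to NP, which asks what reproductive experience itself leaves behind, edgeR again called 0 of 13077 genes (0.0%), with a lowest adjusted p of 0.513. Unadjusted, 871 genes were under 0.05, 538 (4.11%) higher and 333 (2.55%) lower in control RE, and DESeq2 called 0. The number under 0.05 was 480 without control RE mouse 88. The 6 genes of smallest p were all higher in control RE. Slit3, a secreted axon guidance protein, had 133, 168 and 237 CPM in the lowest, median and highest NP mouse and 315, 315, 389 and 446 CPM in control RE mice 66, 72, 87 and 88. Camk2a, a kinase of excitatory synapses, had 102, 140 and 162 CPM and 226, 215, 242 and 284 CPM in the same order. Mgll, which degrades the endocannabinoid 2-arachidonoylglycerol, had 35.2, 38.3 and 42.5 CPM and 50.5, 53.3, 52.5 and 52.8 CPM. No control RE mouse overlapped with an NP mouse at these genes, a pattern shared by 1.12% of all genes. The log2 fold changes were 1.06 for Slit3 (standard error 0.219), 0.83 for Camk2a (0.180), 0.46 for Mgll (0.0945), 0.83 for Gpr45 (0.179), 0.90 for 2010300C02Rik (0.197) and 0.73 for Mical2 (0.148), each with an adjusted p of 0.513 by edgeR.

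Neuronal markers had the same order as these genes. Of the 10 excitatory markers, Camk2a, Rbfox3 and Grin2b were higher in control RE at an unadjusted p under 0.05, where 4.11% of all genes were, and the median of the list was 0.35. Camk2a is itself among the 6 genes. Slc17a7 was also under this threshold, but the rule limits it to 1 UMI per member, so its level is no independent value. Camk2a was at 946 CPM in the rest of the libraries. In the 10% of members with most UMIs, the excitatory markers summed to 8807 ± 229 CPM in control RE and 5921 ± 1717 CPM in NP mice, and these nuclei held 29.8% ± 1.94 and 24.8% ± 2.50 of the members' UMIs. In the other 90% the sums were 2879 ± 797 and 3196 ± 915 CPM, so that the means had the opposite order, within their spread. The part of the neuronal markers in the 6 genes was not tested further. Without the deepest 10%, the differences were 0.29 for Slit3, 0.31 for Camk2a, 0.18 for Mgll, 0.21 for Gpr45, 0.22 for 2010300C02Rik and 0.23 for Mical2, and the median of the neuronal list was 0.01. Leaving out the 11.1% of members with at least 5 UMIs of non-neuronal markers, a setting chosen after seeing the data, gave 0.42, 0.36, 0.13, 0.14, 0.42 and 0.26 for these genes in the same order and 0.07 for the neuronal list.

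**Figure D5:**
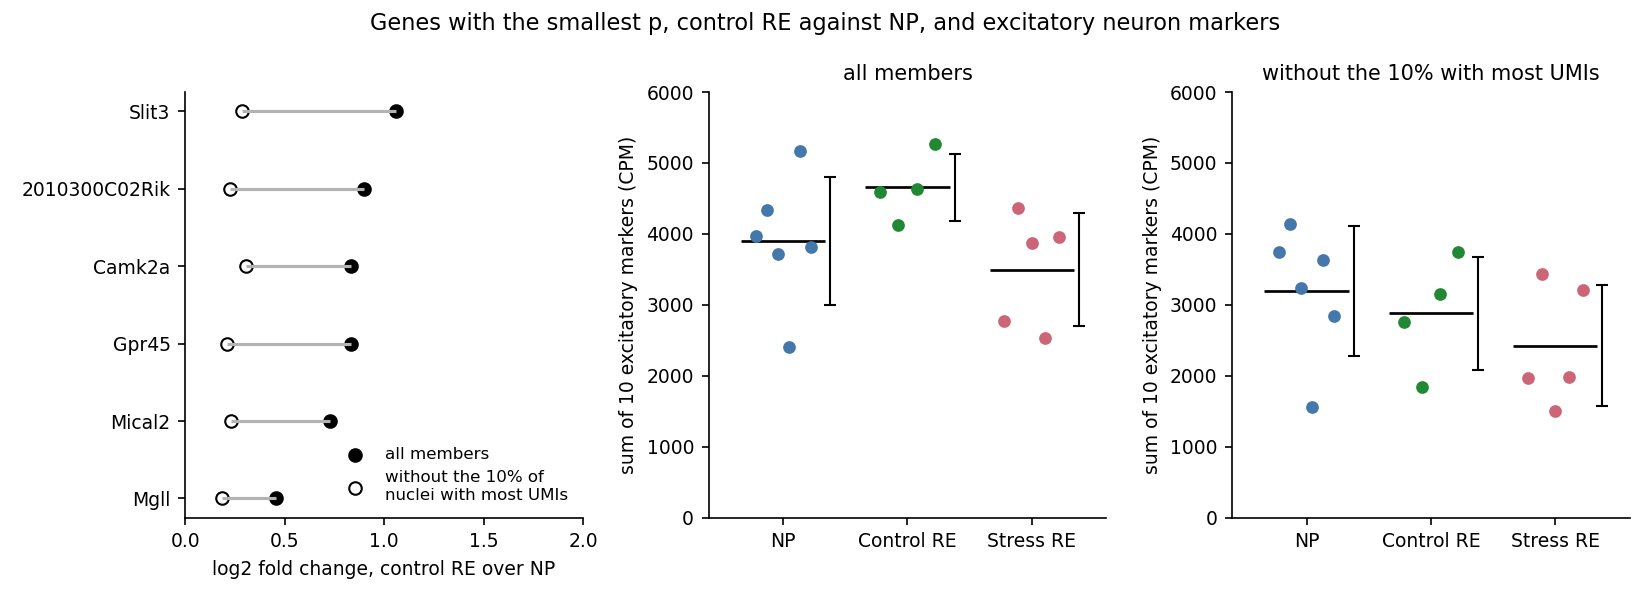
Left, log2 fold change of control RE minus NP for the 6 genes of smallest p, with all members and without the 10% with most UMIs in each mouse; middle and right, summed CPM of 10 excitatory neuron markers in members of each mouse, for all members and for the other 90%, with the group mean and SD. Slit3 goes from 1.06 to 0.29, and the mean of control RE lies above NP with all members and below it (2879 and 3196 CPM) without the deepest.

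In a single random draw of the same number of members, 559, from every mouse, edgeR called 9 of 11856 genes for control RE minus NP, all higher. The draw was not repeated, so it is not known whether another draw would call the same genes. These were 2010300C02Rik, Camk2a, Dagla, Dapk1, Lrrn2, Mgll, Prkce, Shank2 and Slit3, of which Dagla makes and Mgll degrades the same endocannabinoid and Camk2a and Shank2 belong to excitatory synapses. The deepest nuclei remained part of this draw.

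Myelin genes leaned the other way. All 18 genes for myelin proteins had negative differences between control RE and NP, with a median of −0.26, and 6 were lower at an unadjusted p under 0.05, compared to 2.55% of all genes. Of the 14 lipid genes 5 were lower and 0 higher (median −0.21). For 3 of the 14 the groups did not overlap, compared to 0.512% of all genes. Of 20 cholesterol genes 18 had negative differences (median −0.13), with 0 under 0.05 unadjusted in either direction. Enpp2 was at 1350.0 CPM in NP and 1072 CPM in control RE mice and Gal3st1 at 115 and 88.9 CPM. Without the deepest 10% of members, 1 of the myelin protein genes and 2 of the lipid genes were lower, compared to 1.48% of all genes, with medians of −0.12 and −0.14. C4b, a complement gene known from disease-associated oligodendrocytes, had 9.30, 19.8 and 57.7 CPM in the lowest, median and highest NP mouse and 8.88, 10.9, 5.47 and 11.2 CPM in control RE mice 66, 72, 87 and 88. The groups overlapped at the low end, and the log2 fold change was −1.48 (standard error 0.434), without passing adjustment. Serpina3n, a gene of the same state, was at 2.05 CPM and below the filter on low counts of edgeR.

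For stress RE compared to NP, edgeR called 0 of 13077 genes (0.0%), the lowest adjusted p being 1.0, and DESeq2 called 0. Unadjusted, 206 genes (1.58%) were higher and 206 (1.58%) lower, 412 in all, and 776 were under 0.05 without stress RE mouse 90. With all members this was the lowest number of the 3 comparisons, but without the deepest 10% of members it was the highest, with 494 genes compared to 294 for control RE minus NP and 400 for stress RE minus control RE. Dach1, a transcription factor gene, had 36.0, 44.5 and 52.3 CPM in the lowest, median and highest NP mouse and 18.6, 21.7, 31.5, 23.6 and 20.6 CPM in stress RE mice 43, 70, 75, 77 and 90. The groups did not overlap (log2 fold change −0.95, standard error 0.218), and control RE mice were at 22.9 ± 10.8 CPM. Nwd2 was at 101 ± 70.1 CPM in NP and 24.9 ± 15.5 CPM in stress RE mice (−2.08, standard error 0.489), and in the rest of the libraries it was at 280 ± 168 and 124 ± 47.7 CPM. Slc7a11, the cystine transporter, was at 24.1 ± 7.61 and 12.2 ± 2.78 CPM (−0.98), and at 42.3 ± 8.21 and 29.0 ± 5.91 CPM in the rest of the libraries. Spef2 was at 34.9 ± 7.23 and 23.6 ± 2.72 CPM (−0.58). Adipor2 was also lower (−0.55) and Mgll higher (0.38), and all but Dach1 overlapped between the groups. This comparison and the other pair share groups of mice, so their values are not independent of each other.

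Whether a group difference in members was unlike that in the Anln and Hapln2 type was tested as an interaction, with the mouse as a block. On simulated counts with a change in members only, this test recovered 30.6% of genes at a log2 change of 1 and 79.6% at 2. The simulated counts of the 2 types shared no effect of the mouse, so these rates need not hold for the real counts. Of 13370 genes, 1 was called for stress RE minus control RE and 0 for each of the other comparisons, with 687, 588 (control RE minus NP) and 565 (stress RE minus NP) under 0.05 unadjusted. The gene was Gmnc, a regulator of multiciliated cells such as ependyma, with 25 and 90 UMIs over all members of control RE and stress RE mice and 71 and 18 UMIs in the other type (difference in log2 fold change 3.83, standard error 0.614, adjusted p = 0.00776 by edgeR). Stress RE mouse 75 held 71 of the 90 UMIs, and without it the adjusted p of Gmnc was 0.904. The same mouse had the highest sum of choroid plexus and ependymal markers in members, 504 CPM, with 262 CPM in NP mouse 27 as the next, and the part of these markers in the result was not tested. Control RE mice 66 and 87 held 24 and 38 of the 71, and without mouse 87 the adjusted p was 0.253. Within the Anln and Hapln2 type on its own, edgeR called 0 of 11902 genes in each of the 3 comparisons, with 489, 644 and 376 genes under 0.05 unadjusted for control RE minus NP, stress RE minus control RE and stress RE minus NP.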

How the data were processed

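Nuclei from dHF micropunches of 15 mice were profiled by droplet-based single-nuclei RNA-seq. The deposited matrices hold raw UMI counts that the authors made with Cell Ranger on the mm10 (GRCm38) genome, for 32285 genes, 1 library per mouse. The submitters' notes name version 7.1.0 and the file headers 7.0.0. The authors' later removal of ambient RNA and doublets is not part of these matrices, and no doublet caller was run here. Members were chosen by the stated UMI rule, and both the members and the gene lists were chosen with earlier results of these data known.

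Counts of the members were summed per mouse. Genes were kept by filterByExpr, scaled by TMM and tested with edgeR 4.0.16 (quasi-likelihood, all 15 mice in 1 model, group as the term), with a Benjamini-Hochberg adjusted p under 0.05 as a call. DESeq2 1.42.0, the study's tool, was an alternative. The difference between types used a model with mouse as a block. Shares were compared by two-sided exact permutation tests over mice. The scripts were tested on simulated data. Named genes were at most 10 calls per direction or, with fewer than 6 calls, the 6 genes of smallest p (4 for the difference between types), 12 genes per direction between the types, the rule genes, a few fixed genes and up to 4 of the highest members of a list. The 12 genes per direction were taken only among genes with the same sign in every mouse. Some list members are not reported here. Nothing shows that p-values cover more than the spread between these mice, and intervals of shares cover counting error only. Positions are those of GENCODE vM21. R 4.3.3 and Python 3.11.15 were used.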

Additional observations from a re-analysis of the deposited data

Results flagged for a closer look

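Gmnc differed between the types in its response, with a difference in log2 fold change of 3.83 for stress RE minus control RE between the Il33 and Opalin type and the Anln and Hapln2 type (interaction test by edgeR, adjusted p = 0.00776). It rested on few UMIs, 90 in stress RE and 25 in control RE members, and 71 of the 90 came from stress RE mouse 75. Without that mouse the difference was 2.72, and without control RE mouse 87 it was 3.47, and neither passed the adjustment. NP mice had 78 UMIs in members, of which 45 came from mouse 73. Gmnc was at 14.8 CPM in the rest of the libraries. Of 54 groups of values checked for a sample far from the others, 0 had one.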

How the results depend on the processing

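DESeq2 called 13 genes for stress RE minus control RE, and a single random draw of equal numbers of nuclei gave 9 calls for control RE minus NP, where edgeR on all members called 0. Leaving out each mouse in turn gave 0 to 1 calls for control RE minus NP (Dach1, without control RE mouse 87), 0 to 1 for stress RE minus control RE (Zfp831, without stress RE mouse 90) and 0 for stress RE minus NP. Batch as a term, RLE size factors, no filter on low counts and fits of only the compared groups gave 0 in each comparison. For the difference between types, no filter gave 13 calls for control RE minus NP, 25 for stress RE minus control RE and 22 for stress RE minus NP. Leaving out mice gave 0 to 2 (2 without NP mouse 27), 0 to 3 (3 without stress RE mouse 90, 0 without control RE mouse 87 or stress RE mouse 75) and 0 to 1 (without NP mouse 35) in that order.

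The share of mature oligodendrocytes for control RE minus NP became 3.14 points without nuclei that had at least 5 UMIs of a marker list of another class, a limit that removed 13577 of 15297 members and counts Erbb4, 0.330 points over the 2 types only and 0.633 points as the UMIs of the 3 type genes over all 6. The share of all nuclei became 0.937 points for control RE minus NP under the same limit and −0.355 points for stress RE minus NP with nuclei thinned to 2000 UMIs. Leaving out mice, the share of mature oligodendrocytes ranged from −4.15 to −1.34 for control RE minus NP, 1.86 to 5.08 for stress RE minus control RE and −0.845 to 2.38 for stress RE minus NP, with −0.736 without NP mouse 35 and −0.845 without stress RE mouse 70. The share of all nuclei ranged from −0.936 to 0.149 (0.149 without control RE mouse 88), 0.0141 to 1.95 and −0.380 to 1.56 (−0.380 without stress RE mouse 77). Under the limit on marker UMIs, 2010300C02Rik had −0.0041 for control RE minus NP. The cause of these changes was not tested. An alternative chosen after seeing the data left out the 11.1% of members with 5 UMIs of a non-neuronal class. It left 302, 477 and 571 genes under 0.05 unadjusted for control RE minus NP, stress RE minus control RE and stress RE minus NP, compared to 871, 1066 and 412 with all members. Depth kept genes of the lowest counts, such as Serpina3n, below the filter of edgeR.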
